A study of Petromyzon marinus with 21 samples.

Results

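EF1A_A and EF1A_B are the 2 elongation factor 1 alpha probes of a NanoString panel for the sea lamprey, Petromyzon marinus, a jawless vertebrate. They were taken by name from the reference class of the panel, in which they are 2 of 6 probes, among 63 probes in all. The file annotates both only as positive controls of the study and does not say whether they detect 2 genes or 2 stretches of 1 transcript. Neither probe's sequence nor genome position is given in the sources used here. They were chosen by name with their raw counts in all lanes already known, so their levels and their ratio are described here without a test.

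Elongation factor 1 alpha carries aminoacyl-tRNA to the ribosome during translation and releases it after hydrolysing GTP. Vertebrate genomes hold several genes for it, and in Xenopus separate forms are known from oocytes and from somatic cells. Because it is abundant in most cells, its transcript is often used as a reference to which other transcripts are scaled.

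The panel was read on total RNA of adult testes and of whole embryos of 6 ages: D1, D2 and D2.5, then D3, D4 and D5, where the number is the day of development counted from fertilization. The labels name no strain, mutation or treatment, and they give incubation at 18 °C in 10% Holtfreter's solution (spelled Holfretter's there). Each embryo age had 3 biological samples, read in 1 lane each, whereas the 3 testes lanes were technical replicates and count as 1 biological sample. In the column names 17 of the 21 lanes have a replicate number directly after the group. The names of the other 4 (a pair each of D4 and D5) hold a stage and a further tag. The D5 pair share a tag, followed by a number. Of the D4 pair, 1 has that same tag and the other a different one. These 4 lanes were mapped by name to their stage only and are listed as a and b. The nCounter counts a barcode for each probe bound to its transcript, without amplification, so a raw count is a number of barcodes.

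All probes together gave 480200 to 505211 counts in the testes lanes and 21900 to 39770 in the embryo lanes. The background of a lane was taken as the mean + 2 SD of its 8 negative controls, which have no target in the sample. It was 127 to 136 counts in testes and 7.78 to 23.2 counts in embryos. All 8 negative controls had higher mean counts in testes, by 4.07-fold to 35.2-fold, and the weakest positive control, POS_F, had 131 to 135 counts there against 24 to 57 in embryos. The strongest, POS_A, had 18451 to 19969 counts in testes and 13718 to 20909 in embryos. Of 6 germ cell probes (Piwi-1, Piwi-2, 3 of SYCP1 and HFM1), 5 were above background in every testes lane, as were 42 of the 43 target probes of the panel. The 6 germ cell probes summed to 12061 to 12671 in testes and 38 to 442 in embryos. HFM1, at 5815 to 6015, and the SYCP1 probe comp292635, at 4853 to 5231, made up most of the testes sum. Piwi-2 was not above background in any testes lane. The SYCP1 probe comp292635_9 had 174 to 198 counts in testes and 8 to 294 in embryos. All target probes together summed to 450972 to 473907 in testes and 504 to 15415 in embryos, so higher counts in testes were not particular to the germ cell probes. The lanes fall in 3 sets by the date and prefix that open their column names: D1 to D3, D4 and D5, and testes. These sets are called runs here, though the column names do not say what they stand for. Tissue and run cannot be told apart.

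The 2 probes gave opposite pictures of the tissues. EF1A_A was above background in 0 of 3 testes lanes and in 18 of 18 embryo lanes. EF1A_B was above background in 3 of 3 testes lanes and in 0 of 18 embryo lanes. Of the 2, EF1A_B alone thus passed this cut-off in testes, and EF1A_A alone in embryos. Passing it in testes was common, as 42 targets out of 43 did so in all 3 lanes. In all 18 embryo lanes only EF1A_A, HCFC-1 and comp293586 passed it among the reference and target probes.

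In the testes lanes EF1A_A had raw counts of 19, 12 and 22. At D1 it had 395, 181 and 617, at D2 566, 521 and 124, and at D2.5 773, 821 and 825. At D3 it had 180, 863 and 581, at D4 451 in replicate 1 and 547 and 307 in lanes a and b, and at D5 346 in replicate 1 and 380 and 431 in lanes a and b. The testes lanes lay under every embryo lane, and no embryo count came near its background: the lowest, D2 replicate 3, was 8.68 times its lane's background and the highest, D2.5 replicate 1, was 99.4 times. In each testes lane at least 7 of the 8 negative controls had a count at or above that of EF1A_A. Summed over the 3 testes lanes, EF1A_A had 53 counts, fewer than the 58 of the lowest negative control.

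EF1A_B had 240, 199 and 180 raw counts in the testes lanes. Replicates 1 to 3 of D1 had 1 count each, those of D2 had 1, 2 and 1, those of D2.5 had 3, 1 and 3, and those of D3 had 2, 1 and 8. D4 replicate 1 and lanes a and b had 2, 4 and 3 counts, and those of D5 had 1, 1 and 5. Every testes lane thus lay above every embryo lane, and 9 of the 18 embryo lanes stood at 1 count. No embryo count exceeded the mean of its lane's negative controls. The raw table holds no zero and its lowest value is 1, and the file does not say whether a count of 1 was measured or set. Over the 18 embryo lanes EF1A_B summed to 41 counts, and 5 of the 8 negative controls summed to more.

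EF1A_B in testes stood only a little over the background of those lanes, at 1.79, 1.56 and 1.33 times. It was also above the highest negative control of each lane, by 2.00, 1.75 and 1.43 times. The negative controls were higher in testes too. The part of the raised background in the EF1A_B counts was not tested. After the mean of the negative controls was subtracted, 180.0, 138 and 117 counts remained. The 3 lanes read the same RNA, and the 95% exact Poisson intervals of replicates 1 and 3, 211 to 272 and 155 to 208 counts, did not overlap; such intervals cover counting error only.

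**Figure D1:**
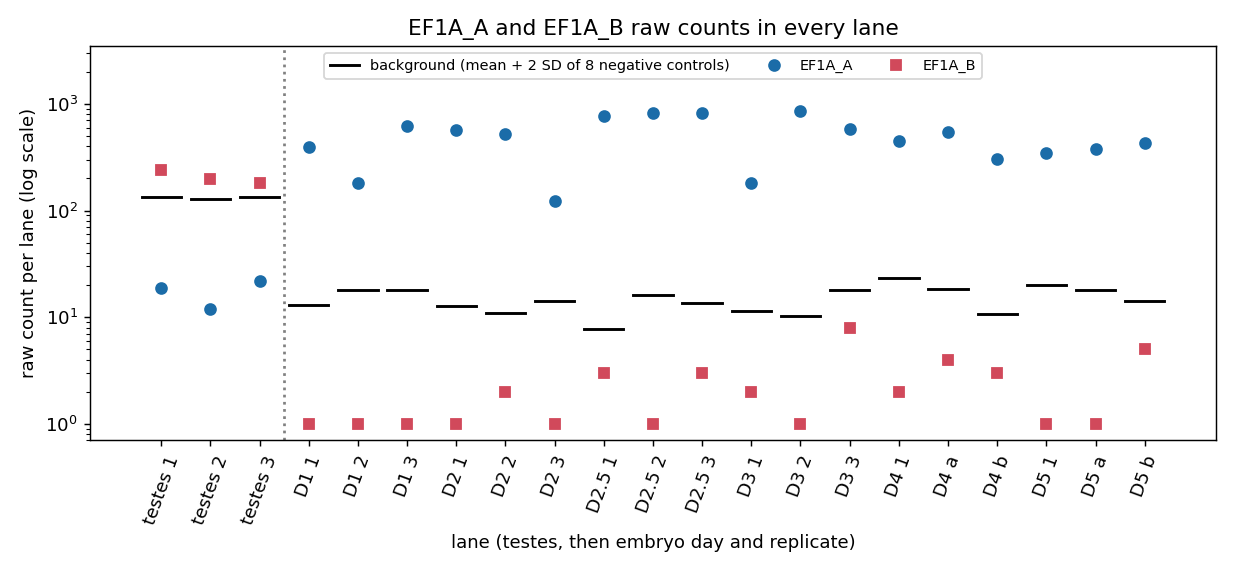
Raw counts of EF1A_A (circles) and EF1A_B (squares) in each lane on a log axis, with testes left of the dotted line and embryos right of it; black bars are the lane's background, the mean + 2 SD of 8 negative controls. EF1A_B lies above the bar in the 3 testes lanes and below it in the 18 embryo lanes, and EF1A_A does the opposite.

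Scaling to the positive controls, synthetic targets added to every lane, divides the counts and the background of a lane by the same factor. It therefore cannot change which probe is above background, nor the order of the probes within a lane. A scaled count is a raw count divided by the lane's geometric mean of the 6 positive controls, with the mean factor over all lanes set to 1. EF1A_A averaged 13.2 scaled counts in testes and 531 ± 251 in embryos (SD, n = 18 lanes). EF1A_B averaged 154 in testes and 2.48 ± 2.20 in embryos (SD, n = 18 lanes). No SD is given for testes, where the lanes are 1 biological sample. In the testes lanes the weakest positive control, POS_F, lay close to background, at 131, 134 and 135 raw counts against 134, 127 and 136. Scaled without it, EF1A_A averaged 15.4 and EF1A_B 180 in testes.

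Because the lower value of each probe lies below background, its fold between tissues is given as a bound. It sets the mean scaled count of the high group against the mean scaled background of the low group. These bounds hold for means, and single lanes can give smaller folds. The lowest embryo lanes in EF1A_A, D2 replicate 3 and D1 replicate 2, had 150 and 167 scaled counts against a testes background of 98.8. The higher value had no background subtracted, so these bounds apply to counts and not to signal above background. EF1A_A was at least 3.77-fold lower in testes than at D5 and at least 8.46-fold lower than at D2.5, with D1, D2, D3 and D4 between at 4.45, 4.99, 6.42 and 4.19-fold. EF1A_B was at least 8.91-fold higher in testes than at D1, with higher bounds for D2, D3, D4 and D5 (10.1, 9.76, 9.48 and 9.33-fold) and the highest for D2.5. With 1 testes sample these folds have no replicate check on the testes side. In RNA of whole tissue, fewer cells of a type and less RNA per cell cannot be told apart. Scaling to HCFC-1 as well moved the bounds over all embryo lanes by more than 1.5 times, to 11.6-fold for EF1A_A, against 5.38-fold, and to 4.15-fold for EF1A_B, against 9.83-fold. HCFC-1, host cell factor C1, a coregulator of transcription, is another reference probe of the panel. Its own scaled count was 123 to 134 in testes and 30.4 to 121 in embryos, higher in testes in all 3 lanes. In testes it stood only a little over background, with raw counts of 167, 177 and 172 against 134, 127 and 136.

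The ratio of the probes within a lane needs no scaling. It reflects how well each probe binds as well as how much transcript there is, so its size is not a ratio of molecules; how it differs between lanes is what can be read. EF1A_A made up 7.34%, 5.69% and 10.9% of the summed EF1A counts in the testes lanes, with 95% exact binomial intervals between 2.97% and 16.0%. In embryos the share was 98.6% to 99.9%, and no interval reached below 95.6%. The stage means were between 99.1% at D3 and 99.7% at D2.5. In every lane the lower probe lay below background, and no background was subtracted. The shares and their stage means therefore do not measure the transcript of the lower probe. The intervals cover counting error only.

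With background in place of the undetected probe, EF1A_B exceeded EF1A_A by at least 1.33 to 1.79 times in the testes lanes. In the embryo lanes EF1A_A exceeded EF1A_B by at least 8.68 to 99.4 times, with a median of 30.1. Taking the lowest bound on each side, the ratio of A to B counts thus differed between the tissues by at least 11.5 times. No background was subtracted from the detected probe, so these bounds too apply to counts and not to signal above background. The order of the probes was the same in 3 of 3 testes lanes, and the opposite order held in 18 of 18 embryo lanes.

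On the log2 scale, after subtraction of the negative control mean with a floor of 1 count, the ratio of EF1A_A to EF1A_B was −7.49 to −6.86 in testes. The D1 lanes averaged 8.44 ± 0.91, the D2 lanes 8.35 ± 1.26, the D2.5 lanes 9.65 ± 0.05, the D3 lanes 8.79 ± 1.19, the D4 lanes 8.70 ± 0.42 and the D5 lanes 8.56 ± 0.16 (SD over 3 lanes). EF1A_A was at the floor in all testes lanes and EF1A_B in all embryo lanes. The testes values therefore follow EF1A_B alone and the embryo values EF1A_A alone, and the size of the difference between them is set by the floor. From raw counts the ratio was −4.05 to −3.03 in testes and 6.18 to 9.75 in embryos.

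**Figure D2:**
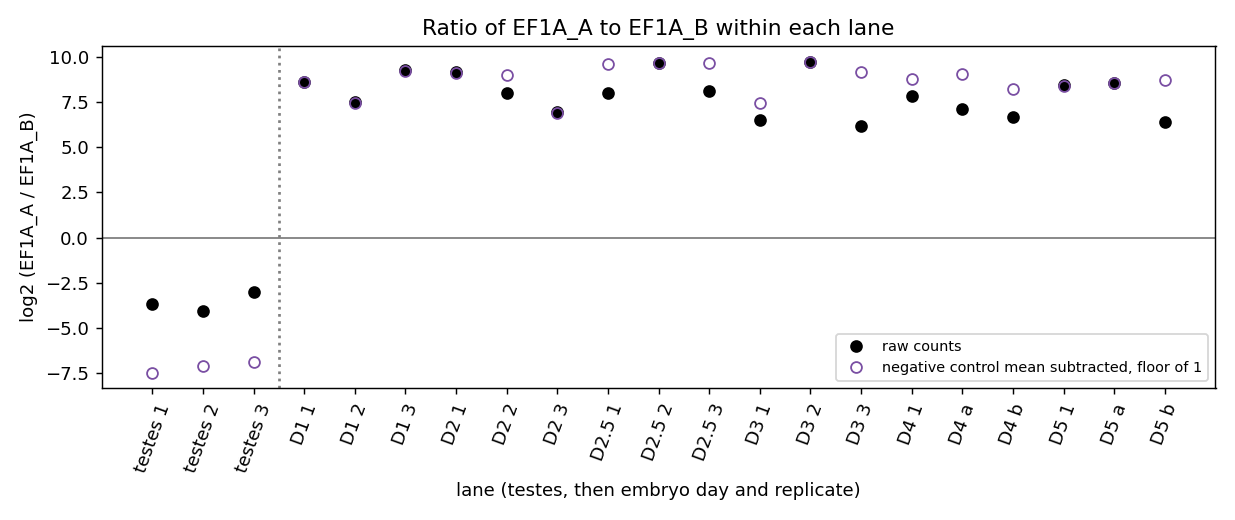
Log2 ratio of EF1A_A to EF1A_B in each lane, from raw counts (filled) and after subtracting the mean of the negative controls with a floor of 1 (open), testes left of the dotted line. All 3 testes lanes lie below 0 and all 18 embryo lanes above it, and testes averages −3.58 from raw counts and −7.16 after subtraction.

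Among the embryo stages the mean of EF1A_A was highest at D2.5 with all lanes included. The mean scaled level of the D1 lanes was 439 ± 253, that of the D2 lanes 493 ± 298, of D2.5 836 ± 31.2, of D3 634 ± 381, of D4 414 ± 73.9 and of D5 372 ± 72.0 (SD over 3 lanes). The highest stage mean, of D2.5, was 2.24 times the lowest, of D5. D4 and D5 were in another run than the earlier stages. This ratio, and any order of D4 or D5 against the earlier stages, therefore cannot be told apart from the run. From low to high the order was D5, D4, D1, D2, D3 and D2.5, and every pair of neighbours in it overlapped in range. D2.5 lanes lay between 816 and 872, above all lanes of D1 (167 to 665), D2 (150 to 667), D4 (360 to 498) and D5 (296 to 440), and inside the range of D3 (220 to 971). Without D3 replicate 1 the D3 mean was 841, above the 836 of D2.5, so the top place depended on 1 lane. In raw counts D4, with a mean of 435, stood above D1 at 398 and D2 at 404, and scaled to HCFC-1 as well, D4 at 693 stood above D1 at 576 and D2 at 563. D5 was lowest and D2.5 highest in both of these orders too.

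Within the first run, the D2.5 mean was 1.90 times that of D1 and 1.69 times that of D2, and the D3 mean was 0.759 times that of D2.5, a direction that turned without D3 replicate 1. Within the second run, D5 was 0.901 times D4, with overlapping lanes. D4 against D3, at 0.652 times, and D5 against D1, at 0.848 times, lay across runs and cannot be told apart from the run. Without D1 replicate 3 the ratio of D5 to D1 was 1.14, and without D1 replicate 2 it was 0.647, so its direction depended on 1 lane.

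Against HCFC-1, counted in the same lanes, the D2.5 level stood out less. EF1A_A per HCFC-1 count averaged 7.74 ± 2.05 in D1 lanes, 7.57 ± 4.17 in D2 lanes, 11.9 ± 1.41 in D2.5 lanes, 10.6 ± 5.29 in D3 lanes, 9.31 ± 3.28 in D4 lanes and 6.33 ± 3.36 in D5 lanes (SD over 3 lanes). D2.5, with lanes of 10.3 to 12.9, stayed above D1 (5.48 to 9.49) and D5 (2.45 to 8.45). It overlapped D2 (3.26 to 11.6), D3 (5.14 to 15.7) and D4 (6.18 to 12.7). D4 and D5 were in another run than D2.5. In testes the value was 0.0678 to 0.128, from EF1A_A counts below background.

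**Figure D3:**
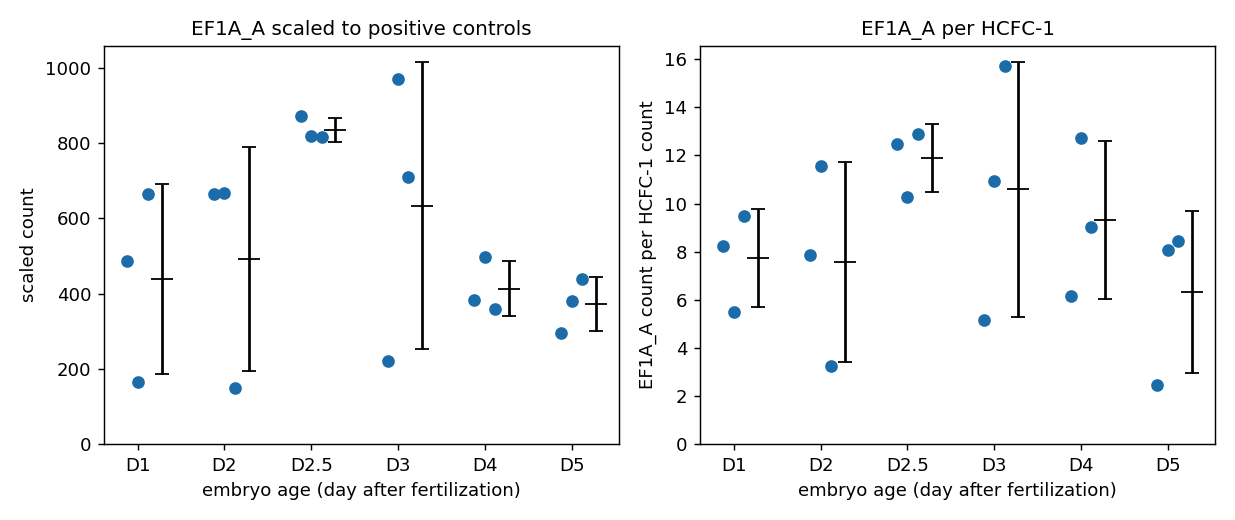
EF1A_A in the 18 embryo lanes by age, as counts scaled to the positive controls (left) and as counts per HCFC-1 count (right); points are lanes, and bars show the mean ± SD of 3 lanes. The D2.5 lanes lie close together at 816 to 872 scaled counts, whereas D1, D2 and D3 each hold 1 lane far below the others.

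At D1, D2 and D3 the lanes of 1 stage differed by more than the stage means did: the highest was 3.99, 4.45 and 4.41 times the lowest. The coefficient of variation of the scaled counts was 57.5% at D1, 60.3% at D2 and 60.1% at D3, but 3.74% at D2.5, 17.9% at D4 and 19.3% at D5. For raw counts, the variance would equal the mean under counting error alone. It was 120, 147 and 218 times the mean at D1, D2 and D3, 33.5 times at D4 and 4.75 times at D5. At D2.5 it was 1.04 times. At D1, D2 and D3, 1 lane lay far below the others. Without that lane the SD of the scaled counts was 127 at D1, 2.06 at D2 and 183 at D3, over 2 lanes each. Some spread thus remained at D1 and D3. The other lanes averaged 3.46 times D1 replicate 2, 4.45 times D2 replicate 3 and 3.82 times D3 replicate 1.

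The low lanes of D1 and D2 were also the lowest of their stage in HCFC-1 and RPS9. Of these reference probes, that of D3 was the lowest in HCFC-1 only, and by little. The summed raw counts of the target probes were lowest in each of these lanes. They were 504 against 1675 and 2384 at D1, and 589 against 2295 and 2956 at D2. At D3 they were 1545 against 4678 and 15415. At D2.5 and D4 the lane lowest in scaled EF1A_A was not the lowest in this sum. HCFC-1 was lowest in the same lane at D1, D2 and D3, with the other lanes averaging 2.13, 1.55 and 1.57 times. At D3 it had 35 raw counts in replicate 1, 37 in replicate 3 and 79 in replicate 2. RPS9, which codes for a small-subunit ribosomal protein and is the other translation probe of the panel, was lowest in the same lane at D1 and D2, at 14 counts against 17 and 32, and at 28 counts against 153 in both others. At D3 its lowest count, 600, was in replicate 3 and not in replicate 1. The positive control factors of the low lanes were 1.09, 0.829 and 0.817, and the other lanes of D1, D2 and D3 averaged 0.870, 0.817 and 0.853. What set these lanes apart was not tested.

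D5 replicate 1 showed another pattern. It had the lowest EF1A_A of its stage, 346 counts against 380 and 431. Its HCFC-1 was the highest, 141 against 47 and 51, as was its RPS9, 5518 against 2666 and 2771. The column names of D5 lanes a and b, like that of D4 lane a, hold a tag that D5 replicate 1 lacks. The part of that difference in these values was not tested. D2.5 replicate 3 matched its stage in EF1A_A, with 825 counts against 773 and 821, while it had 211 RPS9 counts against 1005 and 1050. EF1A_A and the other reference probes therefore did not rank the lanes of a stage in 1 order.

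**Figure D4:**
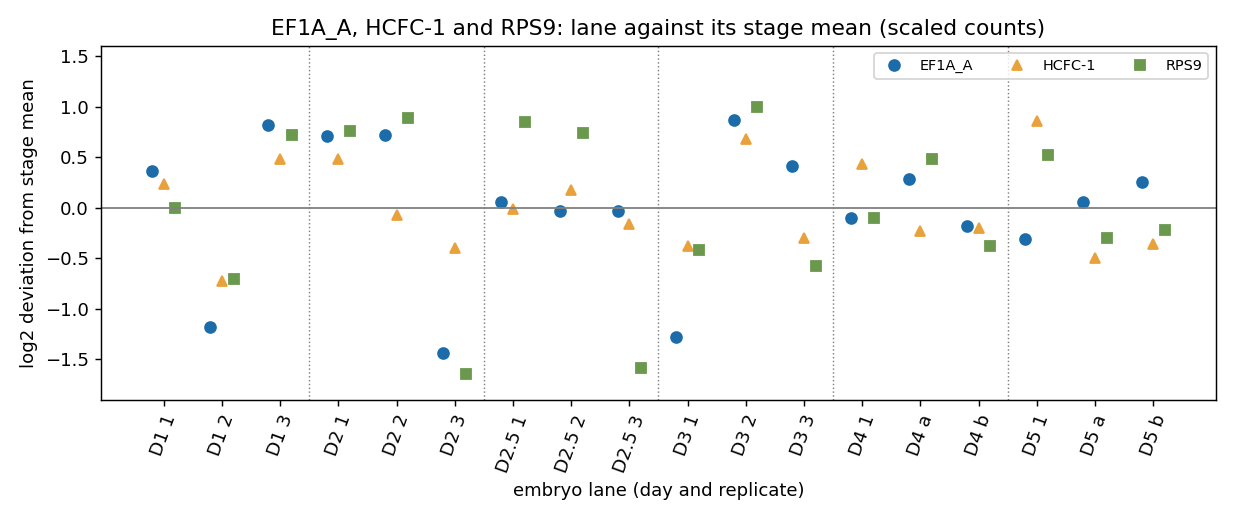
Log2 deviation of EF1A_A, HCFC-1 and RPS9 scaled counts from the mean of their stage in each of the 18 embryo lanes, with dotted lines between stages. EF1A_A lies 1.18, 1.43 and 1.28 below its stage mean in D1 replicate 2, D2 replicate 3 and D3 replicate 1, and EF1A_A and RPS9 part in D2.5 replicate 3 and D5 replicate 1.

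The translation list of the panel held 3 probes, EF1A_A, EF1A_B and RPS9, and their levels over the stages differed widely. RPS9 had stage means that differed 150-fold, between 22.8 ± 10.9 scaled counts in the D1 lanes and 3410 ± 1144 in the D5 lanes (SD over 3 lanes), against the 2.24-fold of EF1A_A. At D1 RPS9 lay near background, with raw counts of 17, 14 and 32 against lane backgrounds of 13.2, 17.9 and 17.8. The size of the 150-fold and of any ratio to RPS9 at D1 rests on these counts. The 150-fold and the 2.24-fold both lie across runs and cannot be told apart from the run. EF1A_A counts per RPS9 count averaged 18.5 ± 5.20 in D1 lanes, 3.84 ± 0.53 in D2 lanes, 1.82 ± 1.81 in D2.5 lanes, 0.560 ± 0.364 in D3 lanes, 0.326 ± 0.045 in D4 lanes and 0.120 ± 0.050 in D5 lanes (SD over 3 lanes). D1 and D2 lanes did not overlap in this value with each other, and D5 lanes lay below those of every other stage. In testes RPS9 had 1182 to 1255 raw counts.

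Likeness to EF1A_A was measured as the SD, over the 18 embryo lanes, of the log2 ratio of a probe to it, where a lower SD is more alike; the lanes share the positive control scaling. Of 35 probes above background in at least 9 embryo lanes, the most alike were comp293586, annotated as aspartate aminotransferase, which moves amino groups between amino acids, with an SD of 0.58, comp280581, annotated as MAD2L1-binding protein, which acts in silencing the spindle checkpoint, with 0.67, and HCFC-1 with 0.70. The SD of EF1A_A itself was 0.81, the value that a probe with the same scaled count in every lane would have. That of HCFC-1 itself was 0.50, and its 0.70 lay only a little below the value of such a flat probe. The log2 ratio of aspartate aminotransferase to EF1A_A had its lowest SD within a stage in D2 lanes, at 1.46 ± 0.07, and its highest in D5 lanes, at 2.01 ± 0.66. The lowest stage mean of this ratio was 0.63 ± 0.40, in D4 lanes (SD over 3 lanes). In testes these probes parted from EF1A_A, with 622 scaled counts of aspartate aminotransferase, 4508 of the MAD2L1-binding protein probe and 129 of HCFC-1. The mean scaled background of testes was 98.8, so HCFC-1 stood only a little over it. Such parting was not particular to these probes. Each testes lane had EF1A_A under its background, whereas 42 targets out of 43 exceeded it throughout.

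For EF1A_B the same measure named a protein phosphatase 1D probe (comp267762) with 0.83, protocadherin FAT3 (comp284391) with 0.87 and the unannotated comp279056 with 1.00. EF1A_B was below background in all of these lanes, so its pattern there is that of counts between 1 and 8. After subtraction of the negative controls 0 of these 3 remained among the 3 most alike.

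The contrast between the probes also entered the authors' deposited table. There the sum of EF1A_A and EF1A_B was 458.3 to 458.8 in every column, so the other reference and target probes were in effect scaled to EF1A_B in testes and to EF1A_A in embryos. In the authors' deposited table EF1A_A was 2.41 to 3.65 in testes and 455 to 458 in embryos, and EF1A_B was 455 to 456 in testes and 1.00 to 3.76 in embryos. The multiplier that this sum gives a lane was 2.41, 3.10 and 3.65 in the testes lanes and 0.533 to 3.76 in the embryo lanes. The multiplier from the positive controls, with a mean factor of 1, was 0.739 to 0.757 in testes and 0.848 to 1.28 in embryos.

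**Figure D5:**
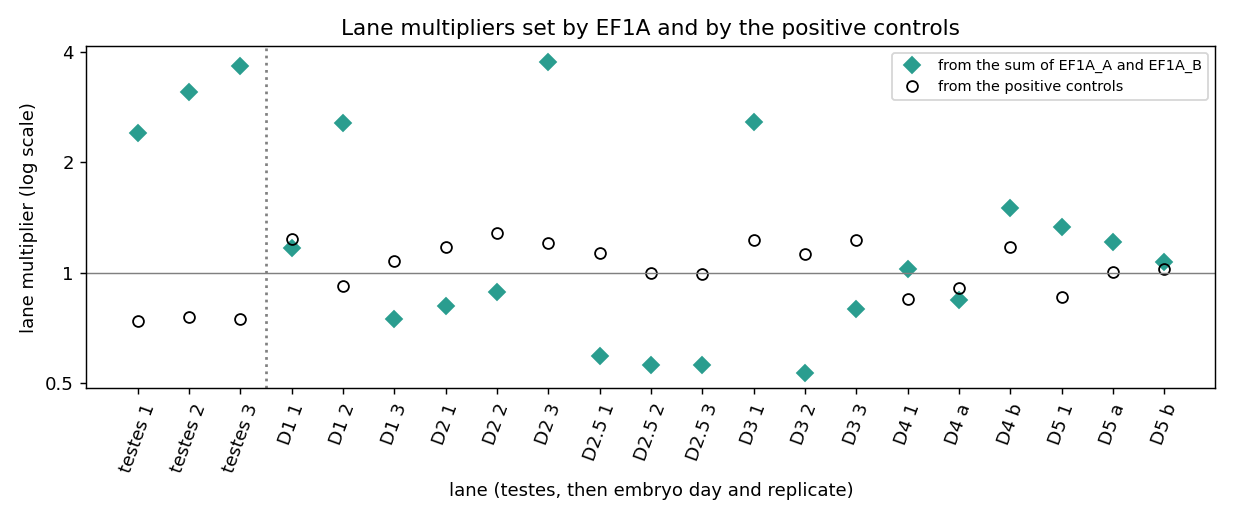
Multiplier of each lane from the sum of EF1A_A and EF1A_B after background subtraction, as inferred for the authors' deposited table (diamonds), and from the positive controls (circles), on a log axis with testes left of the dotted line. The EF1A multipliers spread 1.52-fold over the testes lanes and 7.06-fold over the embryo lanes, and those of the positive controls spread 1.02-fold over testes and 1.51-fold over embryos.

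The gaps between the technical lanes of testes were wider in the authors' deposited table than in raw counts. The raw counts of HCFC-1 were 167, 177 and 172, a highest over lowest of 1.06, whereas the authors' deposited table had 280 to 425, a ratio of 1.52. For RPS9 that ratio was 1.06 in raw counts and 1.42 in the authors' deposited table. Of the 42 target probes above background in every testes lane, all 42 had a wider ratio in the authors' deposited table, with a median of 1.43, against 1.06 in raw counts. Subtraction of the negative controls alone, run after the data were seen, left the ratio at 1.07 for HCFC-1, 1.07 for RPS9 and a median of 1.06 for the 42 target probes. The EF1A multiplier alone gave 1.56, 1.43 and 1.44. The multipliers ran in the reverse order of the EF1A_B counts of these lanes, 240, 199 and 180.

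Among embryo lanes the effect depended on the probe. The SD within stages on the log2 scale, pooled over the 6 stages, was 0.38 for aspartate aminotransferase when scaled to the EF1A sum and 0.94 when scaled to the positive controls. For the MAD2L1-binding protein probe it was 0.52 with the EF1A sum and 1.08 with the positive controls, and for RPS9 it was 0.76 with the EF1A sum and 0.97 with the positive controls. For HCFC-1 it was 0.72 with the EF1A sum, higher than the 0.53 with the positive controls. Apart from RPS9, these probes were named for the low SD of their ratio to EF1A_A in the same lanes, so their values are a description.

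The level of testes against embryos differed between raw counts and the authors' deposited table. The mean of HCFC-1 in testes was 2.96 times that in embryos in raw counts and 6.0 times in the authors' deposited table. The testes counts of HCFC-1 stood only a little over the raised background of those lanes. For RPS9 the testes mean was 1.04 times the embryo mean in raw counts and 2.78 times in the authors' deposited table. With subtraction alone these values were 2.19 for HCFC-1 and 0.994 for RPS9, and with the EF1A multiplier alone they were 8.09 and 2.89.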

How the data were processed

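The authors deposited raw barcode counts of 63 probes in 21 lanes and a table of normalized signal values; per the file headers the lanes are NanoString nCounter files, and the software used is not given in the sources used here. That the deposited signal values were scaled to the sum of EF1A_A and EF1A_B after subtracting the negative controls was inferred. For RPS9 it gave the deposited value within 2% in 17 of 17 lanes whose column names 1 sample. Raw POS_A counts of lanes a and b were 19406 and 15148 at D4, and 16976 and 18204 at D5. The deposited POS_A values of samples 2 and 3 were 19402 and 15145 at D4, and 16972 and 18200 at D5. By this probe, lane a corresponds to sample 2 and lane b to sample 3. EF1A_A, EF1A_B and the lists were chosen with earlier results of these data known. Beside them, the other reference probes and the 3 probes most alike in pattern were named by rule. Counts were scaled to the geometric mean of 6 positive controls; the background was the mean + 2 SD of 8 negative controls. No test across probes was run, so no replicate check beyond means, SDs and ranges is given. Alternatives were other scalings, background subtraction, other cut-offs and leaving out lanes. Python 3.11.15, pandas 2.3.3 and scipy 1.17.1 were used.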

Additional observations from a re-analysis of the deposited data

Results flagged for a closer look

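The log2 ratio of EF1A_A to EF1A_B ran in opposite directions in the tissues: it averaged −7.16 in the 3 testes lanes (−7.49 to −6.86) and 8.75 in the 18 embryo lanes (6.89 to 9.75), negative in every testes lane and positive in every embryo lane. The probe below background was at the floor of 1 count in every lane, so the size of these values is set by the floor; raw counts gave averages of −3.58 in testes and 7.93 in embryos. The difference was not tested. The testes lanes are 1 biological sample from a run of their own, in which the negative controls were 4.07-fold to 35.2-fold higher.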

How the results depend on the processing

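The background cut-off (mean + 3 SD, the highest negative control or the mean of the negative controls) left the numbers of lanes above background at 0 and 18 for EF1A_A and at 3 and 0 for EF1A_B, in testes and embryos; for EF1A_A these cut-offs were added after the data were seen. The bound for EF1A_A between testes and embryos, 5.38-fold, was 9.95-fold with the negative control mean subtracted and 11.6-fold with HCFC-1. That for EF1A_B, 9.83-fold, was 13.9-fold in raw counts, 12.1-fold with the sum of the positive controls, 11.8-fold without the weakest of them and 4.15-fold with HCFC-1. The EF1A_A mean in testes, 13.2, was 17.7 in raw counts, 7.68 with HCFC-1 and 0.747 after subtraction, all below background. The EF1A_B mean in testes, 154, was 206 in raw counts, 183 with the sum, 180 without the weakest control, 89.5 with HCFC-1 and 108 after subtraction. With HCFC-1, EF1A_A was 884 at D2.5, 693 at D4 and 471 at D5. Scaled to the positive controls alone, the D5 lane with a replicate number had 296. The log2 ratio of the probes without subtraction was 8.60 at D2.5, 7.48 at D3, 7.20 at D4, 7.81 at D5 and −3.58 in testes, and with the authors' deposited values 8.84 at D2.5. Of the 3 probes named for likeness to EF1A_B, 0 remained with subtraction and 0 among probes above background in all 18 embryo lanes. Leaving out 1 lane gave bounds of 5.12 to 5.61-fold for EF1A_A and 9.09 to 10.5-fold for EF1A_B; the ratio of D5 to D1 for EF1A_A spanned 0.647 to 1.14. No D5 over D1 value is given for EF1A_B, below background in both. The cause of these shifts was not tested. No paired analysis was possible because these results come from no test.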

Other observations

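In 19 of the 21 lanes the EF1A probe that lay below background was also at or below the geometric mean of the negative controls plus the floor of 1 count, so its entry in the authors' deposited table follows the multiplier or the floor and not its count. The other 2 lanes were D3 replicate 3, with 8 raw counts of EF1A_B, and D5 lane b, with 5. In all 17 lanes whose column names 1 sample it was within 2% of the floored count times the lane's own multiplier, or of 1 where that product was smaller. The EF1A_A entries in testes of 2.41, 3.10 and 3.65 thus equal the multipliers set by EF1A_B in those lanes. The highest EF1A_B entry in embryos, 3.76 in D2 replicate 3, equals the multiplier of the lane with the fewest EF1A_A counts, where EF1A_B had a raw count of 1.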
